A study of Mus musculus with 2 samples.

Results

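Cytochrome P450 family 2 genes were examined in liver tumours of an HLF-deficient and a wild-type (WT) mouse. The set holds every gene whose symbol begins with Cyp2 and a subfamily letter and that is the only gene named by a probe set. These were 45 of the 19938 genes measured, from 14 subfamilies, and each was read by 1 probe set. The data were 1 array of hepatocellular carcinoma tissue from an HLF-deficient mouse and 1 of carcinoma tissue from a WT mouse. Both mice had been given DEN, diethylnitrosamine, a liver carcinogen, and the sources used here give neither the age nor the strain of the mice, nor how HLF was inactivated. HLF, hepatic leukemia factor, is a transcription factor of the PAR bZIP family. Expression is given as log2 RMA values, and each difference is HLF-deficient minus WT. With 1 array per genotype there is no spread between tumours, so no difference below has an error or a p-value, and precision is limited by this number of arrays.

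Family 2 is the largest group of P450 enzymes that hepatocytes use on foreign compounds. These haem proteins of the endoplasmic reticulum insert oxygen into drugs, carcinogens, steroids and fatty acids, with electrons passed on by P450 reductase and cytochrome b5. In mouse liver many Cyp2a, Cyp2b and Cyp2c genes respond to the nuclear receptors CAR and PXR, several differ between the sexes under the pattern of growth hormone release, and the perivenous and periportal zones of the lobule use different members. PAR bZIP factors are known to act upstream of drug metabolism in mouse liver, where animals lacking Hlf, Dbp and Tef together express less CAR and fewer of its targets.

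Hlf had a level of 3.79 in the HLF-deficient tumour and 5.13 in the WT tumour, a difference of -1.34, which goes with the labels. The sources used here do not say which part of the gene its probe set covers. Hepatocyte markers were close on both arrays, with a median difference of 0.03 over the 9 measured of 10 and mean levels of 11.23 in the HLF-deficient and 11.19 in the WT tumour. Endothelial markers had a median difference of 0.81 over 7 genes, macrophage markers 0.32 over 7, and stellate cell and fibroblast markers 0.32 over 7, with mean levels of 6.48, 6.10 and 5.93 in the HLF-deficient tumour against 5.87, 5.58 and 5.58 in the WT tumour. Members of these lists went both ways, from -0.13 for Tek to 1.21 for Lyve1 among endothelial, from -0.37 for Clec4f to 1.86 for Cd14 among macrophage, and from -0.13 for Lrat to 0.76 for Col1a2 among stellate cell and fibroblast markers. Of the 7 endothelial markers 1 was higher by 2-fold, and of the 7 macrophage markers 2 were, Cd14 and Cd68, against 1.5% of all genes compared. Cholangiocyte markers had a median of -0.12 over 4, T and NK cell markers -0.13 over 4 and neutrophil markers -0.25 over 3, and of 4 listed B and plasma cell markers only Jchain, at 0.12, was above the floor. The part of these markers in the values below was not tested, and in bulk tissue fewer cells of a type and less RNA per cell cannot be told apart. All 3 markers of airway club cells, which also make Cyp2f2, were under the expression floor in both tumours. The Y-linked genes Eif2s3y, Kdm5d and Uty were above the floor in both tumours and Xist was below it in both.

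Of the 45 Cyp2 genes, 33 reached the expression floor on at least 1 array. The floor, a log2 value of 2.98, is the 95th percentile of probe sets for odour, pheromone and taste receptor genes, which liver does not use. At the rule of size used here, 2-fold or a log2 difference of at least 1, 4 members were lower in the HLF-deficient tumour, against 0.364% of the 14575 genes compared. They were Cyp2c54, Cyp2b9, Cyp2c50 and Cyp2a22. At the same rule 0 members were higher, where 1.5% of all genes compared were. These 4 genes were above the floor on both arrays, and ranked 4th, 12th, 14th and 19th from the lowest among the differences of all genes compared.

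The median difference of the 33 members was -0.22, beside 0.07 for all genes compared. Differences below 0 were found for 24 of the 33, against 41.6% of all genes compared. Of these 33, 3 passed the floor in the WT tumour only, so their differences had to be below 0. Among the 30 members that reached the floor on both arrays, 21 had a difference below 0, against 39.1% of such genes, and their median was -0.17 beside 0.09. Centring each array on its median adds 0.12 to every difference. It left 21 of 33 below 0, beside 28.7% of genes, with a member median of -0.10 and an all-gene median of 0.20. Without Cyp2c54 and Cyp2c50 the median of the remaining 31 members was -0.18. A difference of at least 0.5 in size was found for 8 of the 33, where 15.1% of all genes compared had one, and 14 lay within 0.25 of 0, where 51.6% of all genes did. The plot of levels by subfamily shows both tumours for the 33 members.

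**Figure D1:**
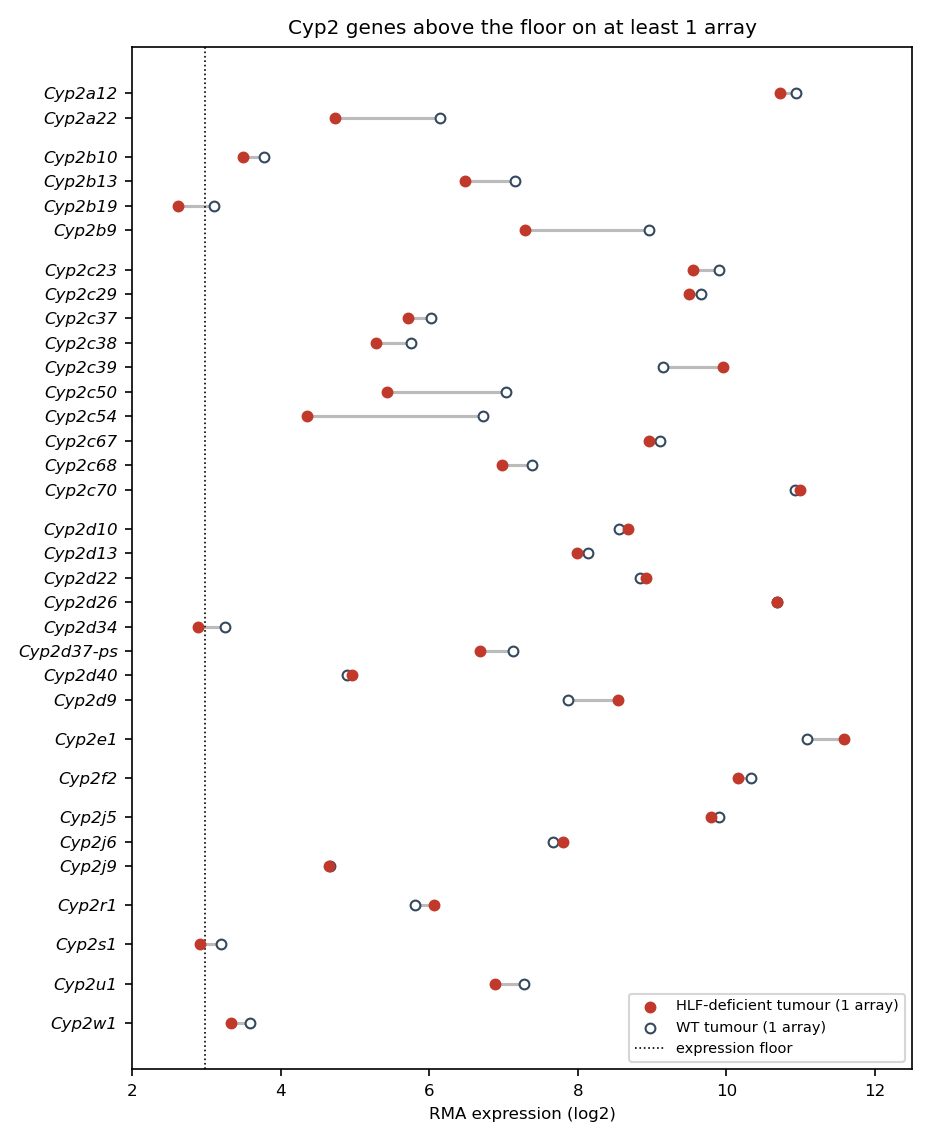
RMA expression (log2, horizontal axis) of the 33 Cyp2 genes that reached the floor on 1 array or both, grouped by subfamily, with filled points for the HLF-deficient and open points for the WT tumour (1 array each) and a dotted line at the floor of 2.98. The 4 longest gaps are those of Cyp2c54, Cyp2b9, Cyp2c50 and Cyp2a22, each with the HLF-deficient point on the left, and levels of different genes come from different probe sets and cannot be ranked against each other.

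The Cyp2c subfamily, whose mouse members oxidise arachidonic and linoleic acid as well as drugs, held the lowest difference of the family. Cyp2c54 had a level of 4.35 in the HLF-deficient tumour and 6.72 in the WT tumour, a difference of -2.37 or 5.18-fold lower. Cyp2c50 had 5.43 in the HLF-deficient and 7.04 in the WT tumour, a difference of -1.61 or 3.06-fold lower. Both enzymes belong to the phenobarbital-inducible Cyp2c genes of mouse liver, and they were the only 2 of 10 compared Cyp2c genes past 2-fold. Of all genes compared, 0.364% were lower by 2-fold and 1.5% higher.

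Cyp2c39, known as a retinoic acid hydroxylase of mouse liver, went the other way. Its level was 9.96 in the HLF-deficient and 9.15 in the WT tumour, a difference of 0.81, the highest of the 33 members though short of 2-fold. The other 7 Cyp2c genes compared differed by less than 0.5 between the tumours as deposited; after removal of the loess trend Cyp2c38 was at -0.67, Cyp2c68 at -0.60 and Cyp2c37 at -0.52. Cyp2c38 differed by -0.48, Cyp2c68 by -0.40, Cyp2c23, an epoxygenase of arachidonic acid, by -0.35 and Cyp2c37 by -0.31. Cyp2c29 differed by -0.17, with levels of 9.50 in the HLF-deficient and 9.66 in the WT tumour, and Cyp2c67 by -0.15. Cyp2c70, which makes muricholic acids in mouse liver, was level at 10.99 in the HLF-deficient and 10.93 in the WT tumour. Cyp2c55, Cyp2c65 and Cyp2c66 were below the floor on both arrays. The subfamily's median difference was -0.33.

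The Cyp2c54 and Cyp2c50 genes are next to each other. In the RefSeq gene order of assembly GRCm38.p6, Cyp2c genes other than Cyp2c23 form 1 cluster on chromosome 19 with 0 other protein-coding genes between its measured members, and Cyp2c54 lies between Cyp2c37 and Cyp2c50, followed by Cyp2c70. The members on either side of the pair, Cyp2c37 and Cyp2c70, differed by -0.31 and 0.06. Of the 10 compared genes nearest to the cluster, 5 on each side, 0 passed 2-fold, and their differences ran from -0.17 to 0.59 with a median of 0.11. Probe sequences were not analysed here, and probe sets of genes as alike as these may read more than 1 of them.

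The promoters of Cyp2c50 (chr19:40089429-40089728, plus strand) and of Cyp2c37 (chr19:39992174-39992473, plus strand) are shown because Cyp2c37 had the promoter closest to that of Cyp2c50 among the Cyp2c genes with an entry, which did not include Cyp2c54 or Cyp2c23, while the genes differed by -1.61 and -0.31. Each runs from 250 bases before to 50 after the RefSeq start site in GRCm38.p6, and capitals mark bases that are substituted or have no partner in the other sequence.
Cyp2c50: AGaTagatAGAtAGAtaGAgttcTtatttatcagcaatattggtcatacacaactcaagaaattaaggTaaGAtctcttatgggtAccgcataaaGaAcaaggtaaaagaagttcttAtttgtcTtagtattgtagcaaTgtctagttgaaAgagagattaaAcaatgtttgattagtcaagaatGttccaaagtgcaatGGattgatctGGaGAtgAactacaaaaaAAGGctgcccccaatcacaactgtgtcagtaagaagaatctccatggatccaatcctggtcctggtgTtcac
Cyp2c37: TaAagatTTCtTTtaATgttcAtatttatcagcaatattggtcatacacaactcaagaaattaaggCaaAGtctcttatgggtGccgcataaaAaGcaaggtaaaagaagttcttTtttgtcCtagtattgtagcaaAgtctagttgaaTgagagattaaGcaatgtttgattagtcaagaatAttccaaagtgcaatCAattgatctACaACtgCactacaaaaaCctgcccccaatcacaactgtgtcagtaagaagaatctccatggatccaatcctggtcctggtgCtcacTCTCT
They aligned over 305 columns with 86.6% identity, 31 substitutions and 10 gap columns. The promoters of the other 9 Cyp2c genes with an entry were 44.6% to 59.2% identical to that of Cyp2c50. Neither window held any of the motifs searched.

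All 4 Cyp2b genes compared had lower values in the HLF-deficient tumour, and 1 of them passed 2-fold. Of all genes compared, 41.6% had differences below 0 and 0.364% were lower by 2-fold. Cyp2b19 had reached the floor in the WT tumour only, which fixed its direction. The Cyp2b subfamily holds classic targets of phenobarbital and CAR. Cyp2b9, a female-biased member in mouse liver, had a level of 7.29 in the HLF-deficient and 8.95 in the WT tumour, a difference of -1.66 or 3.16-fold lower. Its neighbour Cyp2b13, also female-biased, had 6.48 in the HLF-deficient and 7.15 in the WT tumour, a difference of -0.67.

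Cyp2b10, the member most often used as a readout of CAR activity, was dim in both tumours at 3.49 in the HLF-deficient and 3.77 in the WT tumour, a difference of -0.28. Cyp2b19, an epoxygenase known from skin, had 2.62 in the HLF-deficient tumour, which is under the floor, and 3.11 in the WT tumour. Its WT value was 1.09-fold above the floor, and the floor fixed its direction. Cyp2b23 stayed under the floor in both tumours. The 4 compared had a median difference of -0.58.

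Cyp2b9 and Cyp2b13 have nearly the same promoter in RefSeq, and both are printed for that reason. That of Cyp2b9 lies at chr7:26173159-26173458 and that of Cyp2b13 at chr7:26061245-26061544, both on the plus strand of GRCm38.p6, and capitals mark the bases at which they differ.
Cyp2b9: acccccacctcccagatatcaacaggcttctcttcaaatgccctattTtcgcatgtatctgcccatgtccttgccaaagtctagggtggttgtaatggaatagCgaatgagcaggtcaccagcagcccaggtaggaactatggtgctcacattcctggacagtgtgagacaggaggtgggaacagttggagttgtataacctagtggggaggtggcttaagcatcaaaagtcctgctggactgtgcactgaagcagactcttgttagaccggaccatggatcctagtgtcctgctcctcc
Cyp2b13: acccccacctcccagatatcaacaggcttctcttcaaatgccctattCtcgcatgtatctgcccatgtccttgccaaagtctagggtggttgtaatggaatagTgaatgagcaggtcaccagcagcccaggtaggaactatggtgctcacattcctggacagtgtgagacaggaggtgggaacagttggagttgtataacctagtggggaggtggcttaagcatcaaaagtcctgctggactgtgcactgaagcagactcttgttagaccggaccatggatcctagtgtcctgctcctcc
The alignment was 99.3% identical, with 2 substitutions in 300 columns and 0 gaps. Among the Cyp2b genes, next in likeness to the Cyp2b9 window came that of Cyp2b10, with 70.1% identity. Both windows held 1 AGGTCA, the half-site of many nuclear receptors, beginning 138 bases before the start site. The differences of these neighbours, -1.66 and -0.67, were 0.99 apart on the log2 scale, in 1 pair of tumours and with no spread to set this against. Probe sequences were not analysed for this pair either, and each probe set may read both genes.

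In the Cyp2a subfamily, which hydroxylates coumarin and steroids, Cyp2a22 was lower and Cyp2a12 close to level. Cyp2a22 had a level of 4.73 in the HLF-deficient and 6.15 in the WT tumour, a difference of -1.42 or 2.68-fold lower. Cyp2a12, which acts on steroids and bile acids, had 10.72 in the HLF-deficient and 10.94 in the WT tumour, a difference of -0.22. The Cyp2a22 and Cyp2a12 genes follow each other among the measured members of the chromosome 7 cluster.

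Their promoters are shown as the third pair of near relatives with unequal differences, Cyp2a22 at chr7:26939337-26939636 on the minus strand and Cyp2a12 at chr7:27028840-27029139 on the plus strand. Capitals again mark bases substituted or without a partner.
Cyp2a22: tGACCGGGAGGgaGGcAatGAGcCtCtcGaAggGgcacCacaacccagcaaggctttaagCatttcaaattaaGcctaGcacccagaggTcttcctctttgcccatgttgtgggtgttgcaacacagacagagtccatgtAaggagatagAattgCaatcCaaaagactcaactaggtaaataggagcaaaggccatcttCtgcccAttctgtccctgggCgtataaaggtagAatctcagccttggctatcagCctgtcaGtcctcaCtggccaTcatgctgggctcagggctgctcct
Cyp2a12: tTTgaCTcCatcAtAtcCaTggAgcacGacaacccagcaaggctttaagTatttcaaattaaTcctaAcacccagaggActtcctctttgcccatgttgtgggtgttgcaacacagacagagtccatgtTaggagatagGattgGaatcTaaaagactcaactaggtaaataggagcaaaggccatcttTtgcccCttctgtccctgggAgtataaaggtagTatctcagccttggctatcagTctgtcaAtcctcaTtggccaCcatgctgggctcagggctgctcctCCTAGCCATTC
They were 84.2% identical over 311 columns, with 27 substitutions and 22 gap columns. A TATA box, TATAAA on the gene's strand, began 28 bases before the start site of Cyp2a22 and 39 before that of Cyp2a12.

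The chromosome 7 cluster joins the Cyp2a, 2b, 2f, 2g, 2s and 2t genes, with 5 other protein-coding genes among its measured members. Of its 11 measured members 8 were compared and each of the 8 had a difference below 0, from -1.66 for Cyp2b9 to -0.18 for Cyp2f2, and under the 3 other scalings too. Among the 8, Cyp2b19 and Cyp2s1 had reached the floor in the WT tumour only, so their differences had to be below 0. With the arrays centred Cyp2f2 was at -0.05, and after removal of the loess trend Cyp2s1 was at -0.05. The 10 nearest compared genes outside the cluster ran from -0.57 to 0.49 with a median of 0.22, and 0 passed 2-fold. Cyp2f2, a periportal enzyme that also activates naphthalene in the airway, had 10.15 in the HLF-deficient and 10.33 in the WT tumour. Cyp2s1 was just under the floor in the HLF-deficient tumour at 2.91 and at 3.19 in the WT tumour, 1.16-fold above the floor. Cyp2g1, an enzyme of the olfactory mucosa, and Cyp2t4 were below the floor on both arrays.

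**Figure D2:**
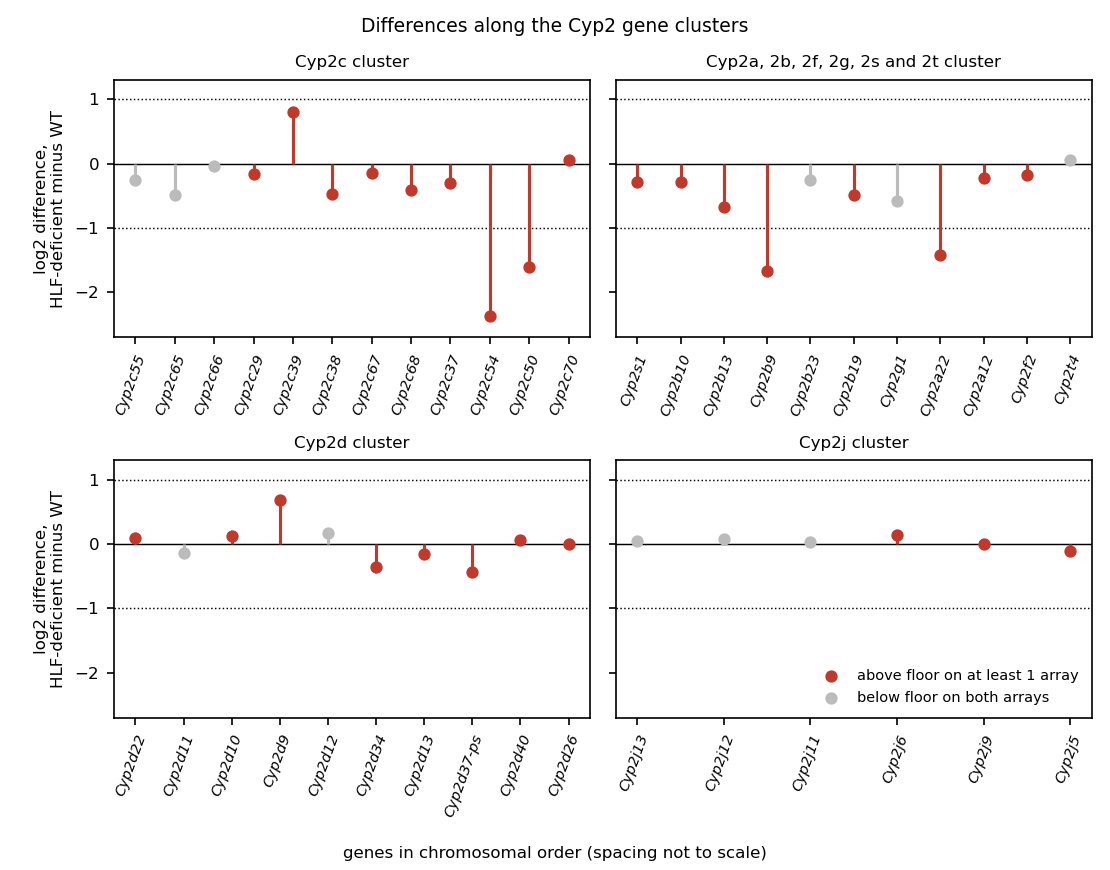
Log2 difference, HLF-deficient minus WT (vertical axis), of measured Cyp2 genes in RefSeq chromosomal order within 4 gene clusters, with equal spacing on the horizontal axis; red points reached the floor on 1 array or both, grey points on neither, and dotted lines mark 2-fold. The adjacent Cyp2c54 and Cyp2c50 lie at -2.37 and -1.61, Cyp2b9 at -1.66 and Cyp2a22 at -1.42, while the Cyp2d and Cyp2j clusters hold no point past 2-fold.

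The Cyp2d genes, relatives of the human debrisoquine hydroxylase gene CYP2D6, were close to level as a group. Of 8 compared, 0 passed 2-fold, and 4 had differences above 0 and 4 below, where 41.6% of all genes compared were below 0. The median was 0.03, which turned to -0.06 after removal of the loess trend. Cyp2d9, a male-biased testosterone hydroxylase, had the highest difference of the 8, 0.68, with 8.55 in the HLF-deficient and 7.87 in the WT tumour. Cyp2d37-ps, annotated as a transcribed pseudogene, had 6.68 in the HLF-deficient and 7.12 in the WT tumour, a difference of -0.44 that was -0.62 after quantile normalization and -0.65 after removal of the loess trend.

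Cyp2d34 had 2.88 in the HLF-deficient tumour, under the floor, and 3.24 in the WT tumour, 1.20-fold above the floor. It was compared through the WT tumour only, which fixed its direction. The remaining 5, Cyp2d10, Cyp2d13, Cyp2d22, Cyp2d26 and Cyp2d40, lay between -0.15 for Cyp2d13 and 0.13 for Cyp2d10, and all but Cyp2d13 turned sign under at least 1 scaling. Cyp2d11 and Cyp2d12 were below the floor on both arrays. Of the 10 compared genes nearest to the cluster 0 passed 2-fold, with a median of 0.01.

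Cyp2e1, the ethanol-inducible perivenous enzyme known to activate nitrosamines such as DEN, had a level of 11.59 in the HLF-deficient and 11.08 in the WT tumour. The difference of 0.51 was the third highest of the 33 members, after Cyp2c39 and Cyp2d9. It lay between 0.47 and 0.63 over the scalings tried.

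The Cyp2j genes, epoxygenases of arachidonic acid, barely differed. Cyp2j5 had 9.79 in the HLF-deficient and 9.90 in the WT tumour, Cyp2j6 had 7.80 in the HLF-deficient and 7.66 in the WT tumour, and Cyp2j9 had 4.65 in the HLF-deficient and 4.66 in the WT tumour. The signs of all 3 differences turned under at least 1 scaling. Cyp2j11, Cyp2j12 and Cyp2j13 were below the floor on both arrays. Of the 10 compared genes nearest to this cluster 1 passed 2-fold, with a difference of 1.63, and their median was 0.15.

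The other single-gene subfamilies gave these values. Cyp2u1, a fatty acid hydroxylase, had 6.88 in the HLF-deficient and 7.28 in the WT tumour, a difference of -0.39 that was -0.60 after removal of the loess trend. Cyp2r1, the vitamin D 25-hydroxylase, had 6.06 in the HLF-deficient and 5.81 in the WT tumour, a difference of 0.25 that was 0.04 after removal of the loess trend. Cyp2w1 had 3.34 in the HLF-deficient and 3.58 in the WT tumour, a difference of -0.25 that was -0.08 after removal of the loess trend. Cyp2ab1 was below the floor on both arrays. In all, 12 members were below the floor on both arrays, with levels from 1.09 to 2.86, and were not compared.

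**Figure D3:**
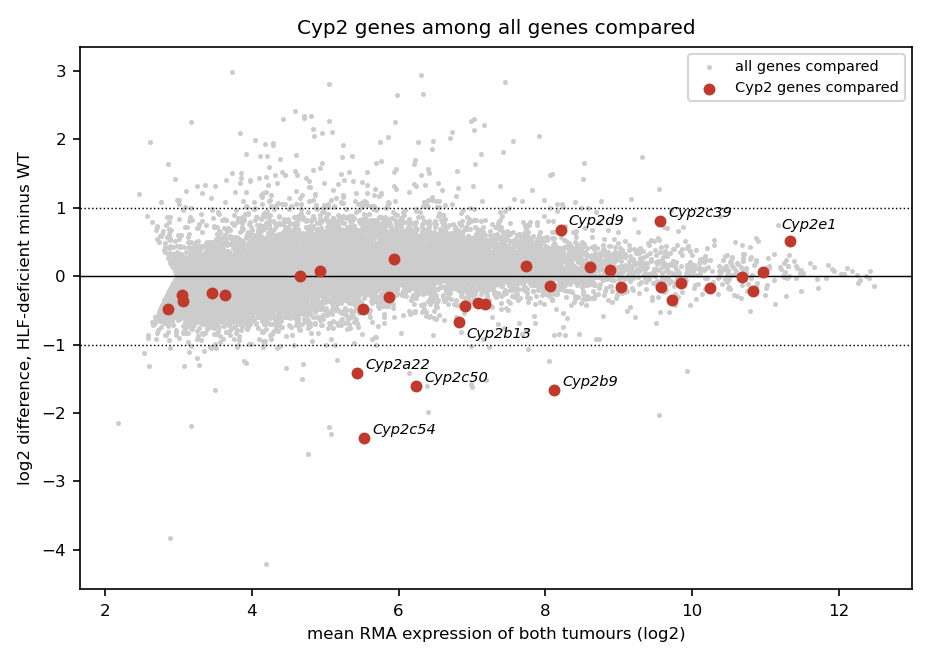
Log2 difference, HLF-deficient minus WT (vertical axis), against the mean RMA expression of both tumours (log2, horizontal axis) for the 14575 genes compared (grey) and the 33 Cyp2 genes among them (red), with names for the 8 that differ by at least 0.5 in size and dotted lines at 2-fold. The 4 named genes below the lower line have few grey points around them, and Cyp2c39, Cyp2d9 and Cyp2e1 lie above 0 among bright genes.

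The larger differences were also followed under other scalings of the 2 arrays. Cyp2c54 ran from -2.56 to -2.25, Cyp2b9 from -1.82 to -1.54, Cyp2c50 from -1.83 to -1.49 and Cyp2a22 from -1.61 to -1.30, so that each stayed past 2-fold under the 3 scalings tried and as deposited. Cyp2b13 ran from -0.88 to -0.55, Cyp2c39 from 0.70 to 0.93 and Cyp2d9 from 0.52 to 0.80, and none of these 3 reached 2-fold.

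**Figure D4:**
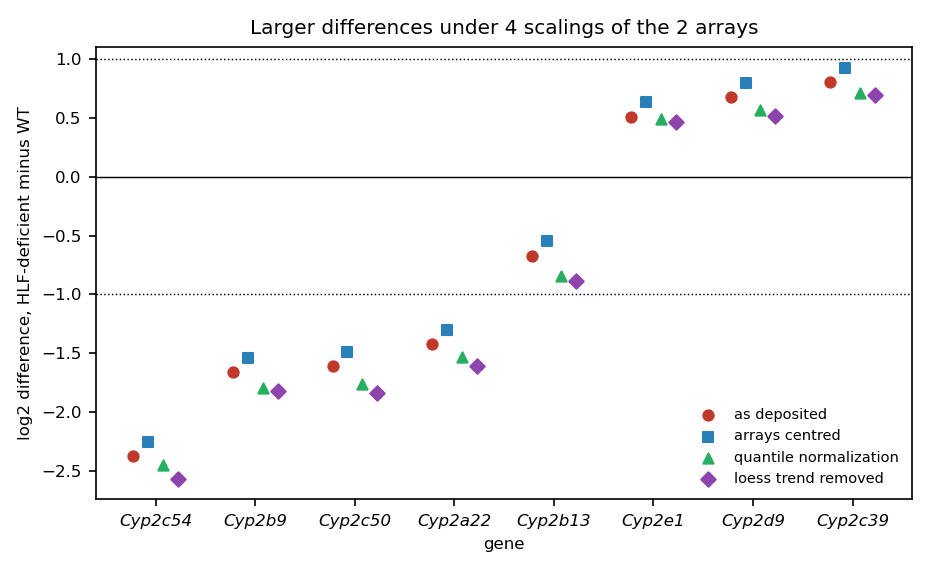
Log2 difference, HLF-deficient minus WT (vertical axis), of the 8 Cyp2 genes that differ by at least 0.5 in size (horizontal axis), as deposited, with each array centred on its median, after quantile normalization and after removal of a loess trend; dotted lines mark 2-fold. Cyp2c54, Cyp2b9, Cyp2c50 and Cyp2a22 lie below the lower line under all 4 settings, and the other 4 genes lie between the lines.

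Members were also described by features other than their subfamily, in lists that overlap. The lists were chosen with earlier results of these data known, so their counts are a description only. Of 12 members listed as female-biased in mouse liver, 9 had a probe set of their own and 8 were compared. Cyp2b9 and Cyp2a22 were the 2 lower by at least 2-fold, 7 of the 8 had differences below 0, and the median was -0.44. Cyp2c39 was the exception above 0. The 4 members listed as male-biased, of which Cyp2d9 is the best known, had a median of -0.14, with 2 above and 2 below 0 and 0 past 2-fold. Of 13 members listed as inducible through CAR, 9 were compared, 3 were lower by at least 2-fold, 0 higher, and the median was -0.48. The 3 were Cyp2b9, Cyp2c50 and Cyp2c54, so these lists count again the 4 members past 2-fold named above. Of all genes compared, 0.364% were lower by 2-fold, 1.5% were higher and 41.6% had differences below 0, with a median of 0.07.

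Perivenous members did not share a direction. Cyp2c54 and Cyp2c50 were past 2-fold, Cyp2c37 and Cyp2c29 were at -0.31 and -0.17, and Cyp2e1 was at 0.51, a median of -0.31 over the 5 measured of 6 listed. The periportal Cyp2f2 was at -0.18. Of the 33 genes compared, 2 are annotated as transcribed pseudogenes, Cyp2d37-ps and Cyp2d13, and both had differences below 0. A difference below 0 was found for 41.6% of all genes compared.

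The promoters of 36 members were searched for motifs, on both strands unless stated, as a description of the letters in these windows. The palindrome TTACGTAA, which PAR bZIP factors bind, and its variant TTATGTAA were in 0 of the 36. Of the 27025 genes with a promoter in the table, 1.23% held 1 of them or the other. At so low a share, 0 of 36 does not set the members apart from other genes. Only these exact letters were searched, and Cyp2c54 was not among the 36. AGGTCA was in 11 of the 36, or 30.6%, against 18.1% of all genes. TATAAA on the gene's strand was also in 11, against 9.77% of all genes. CAAAGTCCA, a site of the hepatocyte factor HNF4A, was in 4 members, or 11.1%, against 0.555% of all genes. The 4 with CAAAGTCCA were Cyp2c65, Cyp2c67, Cyp2c68 and Cyp2c70, of which the 3 compared differed by -0.15, -0.40 and 0.06. All 4 lie in the same cluster on chromosome 19. The 11 with AGGTCA include Cyp2b9 and Cyp2b13, whose windows are 99.3% identical. Related promoters are not independent of each other, which these shares do not take into account. None of these motifs contains another, and all but the PAR bZIP forms were chosen after the sequences had been seen.

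Genes that serve or control the family were set beside it. The electron donors measured, 3 of 4 listed, ranged from Cyb5b, with 8.27 in the HLF-deficient and 8.39 in the WT tumour, to Cyb5r3, with 10.62 in the HLF-deficient and 10.47 in the WT tumour. Haem synthesis genes, 7 of 8 measured, had a median of 0.12 and ran from -0.26 for Cpox to 0.31 for Alad, with 0 past 2-fold. The 17 measured receptors and factors that control Cyp2 genes had 0 past 2-fold and a median of 0.26.

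The lowest of these factors was Nr1i3, which encodes CAR, with 6.14 in the HLF-deficient and 6.34 in the WT tumour, a difference of -0.20. The highest was Cebpb, a bZIP factor of the acute phase, with 6.51 in the HLF-deficient and 5.83 in the WT tumour. Dbp, Tef and the repressor Nfil3, which share or oppose the DNA sites of HLF, were at 0.33, 0.06 and 0.13.

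Among 8 growth hormone signalling genes 1 was higher by 2-fold and 0 lower, where 1.5% and 0.364% of all genes compared were. Bcl6, a repressor that in male mouse liver acts on female-biased genes, had 5.26 in the HLF-deficient and 3.32 in the WT tumour, a difference of 1.94 or 3.83-fold higher. Cux2, a factor of female mouse liver, was the lowest of the list with 4.004 in the HLF-deficient and 4.69 in the WT tumour. The median of the 8 genes was 0.41.

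Other P450 families were set beside family 2 in the same way. Of 25 genes of families 1, 3 and 4, 18 were compared, 2 were lower by at least 2-fold and 0 higher, with a median of 0.05. Of 13 compared in the remaining families 2 were higher and 0 lower, with a median of 0.16. Of all genes compared 1.5% were higher and 0.364% lower. Whether family 2 differed from them was not tested.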

How the data were processed

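Total RNA from tumour tissue was measured on Affymetrix arrays, 1 per genotype. Per the submitters' processing notes, the authors used RMA and Affymetrix Expression Console, with no version named. The deposited values are taken as log2 from their range and from RMA's usual output; neither the scale nor which arrays were normalized together is given in the sources used here.

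Of 35556 probe sets, 21789 named exactly 1 gene in the platform annotation and covered 19938 genes; where a gene had several, the one with the highest mean of the 2 columns stood for it. All 45 Cyp2 symbols matched RefSeq (GRCm38.p6). The floor came from 1243 chemoreceptor probe sets. An SD of 0.24 per probe set, from 739 genes that had a second probe set, served as the yardstick for a value that moved between settings; it does not cover differences between mice.

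Members were named with values where they differed by at least 0.5 or were among the 3 largest of their subfamily, and from other lists mostly the highest and lowest gene; the remaining members were given values after these had been seen. The members and lists were chosen with earlier results of these data known. The rules were tested on simulated arrays made from the WT levels. Changes were planted only in genes well above the floor, with less noise than the SD of 0.24. That test does not cover genes near the floor or differences between mice. The alternatives were centring, quantile normalization, subtraction of a loess trend (span 0.4, statsmodels 0.14.6), averaging over probe sets, floors at the 90th and 99th percentiles, values set to the floor, rules of 1.5-fold and 4-fold and, added after the data were seen, the floor on both arrays or no floor. Promoters were aligned globally with Biopython 1.88 (match 1, mismatch -1, gap opening -5, gap extension -1). A planned comparison of proteins was not run.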

Additional observations from a re-analysis of the deposited data

How the results depend on the processing

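With 1 array per genotype and no shared replicate numbers, no value here has a spread between tumours. No paired analysis was possible because each group held 1 sample. The count of 4 Cyp2 genes lower by at least 2-fold and 0 higher was the same under centring, quantile normalization, loess removal, the mean of probe sets, floors at the 90th and 99th percentiles, values set to the floor, the floor required on both arrays and no floor. With a 1.5-fold rule 2 members were higher and 5 lower, against 6.37% and 3.11% of all genes compared. With a 4-fold rule 1 was lower (0.0617% of all genes) and 0 higher. The median of the members ran from -0.23 to -0.10 over the settings. With a floor at the 99th percentile 2 of the Cyp2b genes were left and their median was -1.16. The Cyp2d median ran from -0.06 to 0.15 and the Cyp2j median from -0.05 to 0.12, so their signs turned. Removal of the loess trend and setting values to the floor moved Cyp2b19, which was under the floor in the HLF-deficient tumour, to -0.23 and -0.13. Dim probe sets near the floor are the least well measured.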

Other observations

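Beside the 45 members, 2 probe sets that named several Cyp2 genes each were left out of every count. The probe set naming Cyp2a4 and Cyp2a5 was at 10.14 in the HLF-deficient and 10.50 in the WT tumour, a difference of -0.36. That naming Cyp2c40, Cyp2c67, Cyp2c68 and Cyp2c69 was at 9.66 and 9.77, a difference of -0.12. Cyp2a4, Cyp2a5, Cyp2c40, Cyp2c69 and Cyp2j8, which RefSeq annotates as protein coding, had no probe set of their own. They were not analysed beyond these shared values.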
